A study of Homo sapiens with 8 samples.

Results

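The knockout of KMT2B was compared with the unedited line (WT) in HEK293T cells, a line derived from human embryonic kidney, by sequencing of poly(A)-selected mRNA. The comparison rests on 4 of the 8 libraries of the series, 2 labelled sgKMT2B and 2 labelled WT, and on the 17527 genes that had enough counts to be tested among 60617 gene identifiers. Every group was grown in DMEM with fetal bovine serum, and the other 4 libraries come from the knockouts sgKDM5C and sgKDM6A, with 2 libraries each. The labels give neither the guide sequence nor whether a knockout line is a single clone or a pool. Nor do they state whether the 2 libraries of a group are separate cultures, and the p-values therefore measure only the spread between these libraries, which may be technical.

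KMT2B is a histone methyltransferase that adds methyl groups to lysine 4 of histone H3 (H3K4), a mark found at active promoters and, together with H3K27 methylation, at the promoters of silent developmental genes. It works in a complex with WDR5, RBBP5, ASH2L, DPY30 and menin, and its CXXC domain binds CpG-rich DNA that is free of methylation. It has been studied mostly in germ cells, embryonic stem cells and the nervous system, and variants of the human gene cause a childhood-onset dystonia. KDM5C removes methyl groups from H3K4 and KDM6A removes them from H3K27.

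The WT libraries held 25099182 and 15868353 counts and the sgKMT2B libraries 25152073 and 25883185, within a range of 15868353 to 27591724 over all 8 libraries. Levels are given below in CPM, counts scaled to library size with TMM factors, always with replicate 1 before replicate 2. Differences are log2 changes of sgKMT2B against WT with their SE, over 2 libraries a group, and genes were called where edgeR's quasi-likelihood test gave an adjusted p under 0.05. Of the kidney progenitor markers checked, PAX2, EYA1, WT1, HOXA10 and HOXD10 were present in both groups, while LHX1 was close to 0. Summed levels of the blood markers were 0 in all 4 libraries, and those of the hepatocyte and endothelial markers stayed under 0.3 CPM. The fibroblast markers COL1A2, LUM and DCN summed to 0.289 and 0.649 CPM in WT and 1.85 and 2.52 CPM in sgKMT2B, with COL1A2 at 0 in sgKMT2B. Because these are bulk samples, fewer cells of a type and less RNA per cell cannot be told apart.

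The targeted gene was lower but not absent. KMT2B (ENSG00000272333, chromosome 19, 35718019 to 35738878 in GRCh38) read 146 and 137 CPM in WT and 63 and 75.5 CPM in sgKMT2B, and 113 and 128 CPM in sgKDM5C and 124 and 123 CPM in sgKDM6A. Both sgKMT2B libraries lay below the other 6. The fall against WT was 1.03 on the log2 scale (SE 0.11, edgeR adjusted p = 2.44e-05), and the direct differences were -0.79 against sgKDM5C (adjusted p = 0.000172) and -0.84 against sgKDM6A (adjusted p = 9.2e-05). Read counts over the whole gene do not show whether the remaining transcripts encode a working enzyme. Among 30 other genes of at least 5 CPM that start within 1 Mb of KMT2B, 6 were called higher and 10 lower, with a median log2 change of -0.23. Of all genes of at least 5 CPM, 17.2% were called higher and 18.0% lower.

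Of 21 H3K4 methyltransferases and shared subunits, 5 rose (23.8%, beside 13.7% of all genes), 3 of them outside the moved genome parts described further on. Of the other enzymes that methylate H3K4, SETD1B rose and KMT2A, KMT2D and SETD1A did not pass the test. SETD1B read 26.3 and 23.3 CPM in WT and 46.2 and 41.9 CPM in sgKMT2B, without overlap (log2 change 0.83, SE 0.14, edgeR adjusted p = 0.000698). KMT2A, its closest relative and the leukaemia gene MLL, had a log2 change of -0.24 (adjusted p = 0.11, and 0.0249 without WT replicate 1), SETD1A one of 0.17 (adjusted p = 0.2) and KMT2D one of -0.06 (adjusted p = 0.672). KMT2C passed at 0.46 (adjusted p = 0.011), but not without sgKMT2B replicate 1 (adjusted p = 0.0603) or without sgKMT2B replicate 2 (adjusted p = 0.0629). NCOA6 and HCFC1, subunits shared by complexes of this family, rose by 0.5 and 0.4 on the log2 scale, HCFC1 not without sgKMT2B replicate 1 (adjusted p = 0.0734).

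Of the 17527 genes tested, 4931 were called (28.1%), 2398 higher in sgKMT2B (13.7%) and 2533 lower (14.5%). Most changes were moderate, with a median size of 0.70 on the log2 scale over the called genes. At least a 2-fold change was called for 649 genes in the upward direction (3.7%) and 898 in the downward direction (5.12%), and at least a 4-fold change for 200 and 331. The median log2 change over all tested genes was 0.00. The number called depended on which sgKMT2B library was present. Without sgKMT2B replicate 1 it was 2372, without sgKMT2B replicate 2 it was 3336, and without WT replicate 1 or 2 it was 4787 or 3574. Protein-coding genes made up most of the calls, 2169 higher and 2304 lower among 13619, against 161 and 164 among 2390 long non-coding RNAs.

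**Figure D1:**
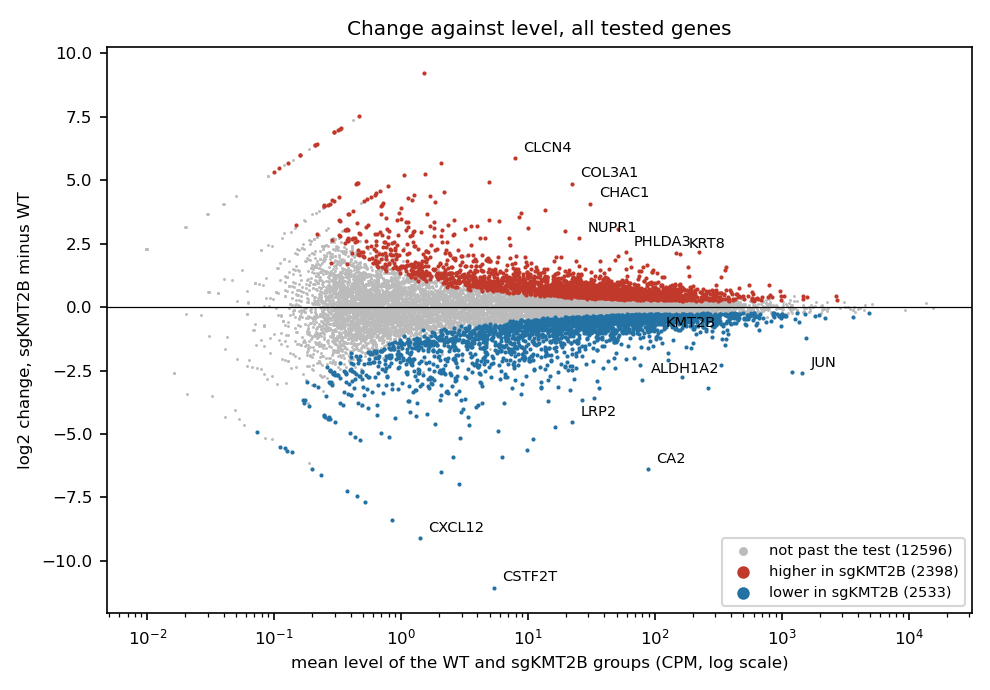
Log2 change of sgKMT2B against WT (vertical axis) for each of the 17527 tested genes against its mean level over the 4 libraries in CPM (horizontal axis, log scale), with called genes coloured by direction. Changes beyond 4-fold lie mostly at low and middle levels, and genes at 0 counts in a group fall on steep lines at the left, where the fitted change depends on the prior count.

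Annotated promoters of genes with large changes are shown first because KMT2B binds CpG-rich DNA, and they differ widely in CpG content. Each line holds the 250 bases before the start of the gene in RefSeq (GRCh38.p14), 5' to 3' on the gene's strand, in lower case with every CpG in capitals. CSTF2T and TENM1 are the first of the large decreases for which a promoter is given, and CLCN4 and SLITRK3 had the largest increases among genes at 5 CPM or more.
CSTF2T: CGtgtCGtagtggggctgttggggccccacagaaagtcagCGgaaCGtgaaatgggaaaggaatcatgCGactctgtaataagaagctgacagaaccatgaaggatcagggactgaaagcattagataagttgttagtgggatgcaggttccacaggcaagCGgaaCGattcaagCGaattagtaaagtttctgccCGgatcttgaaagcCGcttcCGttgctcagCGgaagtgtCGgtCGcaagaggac
TENM1: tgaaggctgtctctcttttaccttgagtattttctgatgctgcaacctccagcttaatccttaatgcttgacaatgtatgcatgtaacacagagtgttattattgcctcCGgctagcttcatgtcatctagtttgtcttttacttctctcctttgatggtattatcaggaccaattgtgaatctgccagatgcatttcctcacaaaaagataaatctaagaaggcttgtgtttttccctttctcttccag
CLCN4: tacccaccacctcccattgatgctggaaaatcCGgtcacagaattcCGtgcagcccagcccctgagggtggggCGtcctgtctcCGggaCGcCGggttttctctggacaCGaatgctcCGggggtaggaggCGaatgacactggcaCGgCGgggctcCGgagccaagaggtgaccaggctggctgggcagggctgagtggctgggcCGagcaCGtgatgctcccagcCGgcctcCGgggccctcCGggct
SLITRK3: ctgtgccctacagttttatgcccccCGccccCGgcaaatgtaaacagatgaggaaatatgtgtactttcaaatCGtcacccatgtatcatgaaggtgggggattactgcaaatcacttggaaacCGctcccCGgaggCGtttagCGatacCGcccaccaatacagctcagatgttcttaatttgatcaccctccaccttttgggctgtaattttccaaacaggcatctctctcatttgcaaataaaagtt
They lie at chr10:51699596-51699845 (minus strand), chrX:124963818-124964067 (minus strand), chrX:10156725-10156974 (plus strand) and chr3:165197110-165197359 (minus strand). The search was for the letters CG, which read the same on both strands, and 93.6% of 27305 RefSeq promoters hold at least 1. CSTF2T has 14 CpG and a ratio of observed to expected CpG of 0.92, TENM1 has 1 CpG and a ratio of 0.11, CLCN4 has 17 and 0.60, and SLITRK3 has 8 and 0.61. The stretches printed for the decreases CSTF2T and TENM1 thus differ in CpG content. Whether transcription starts at the annotated positions in these cells was not tested.

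Some genes fell to 0 or a few counts. CSTF2T, an intronless relative of the cleavage stimulation factor subunit that acts in mRNA 3' end formation, read 10.7 and 11 CPM in WT (427 counts) and 0 counts in both sgKMT2B libraries, at least 177-fold lower with the floor set at 3 counts for the group. It read 15.9 and 13.5 CPM in sgKDM5C and 12 and 10.4 CPM in sgKDM6A, so the gene was undetected only in the 2 sgKMT2B libraries of the 8. CSTF2T lies on the opposite strand within the span of PRKG1, a cGMP-dependent kinase, which fell from 13.6 and 13.9 to 2.81 and 3.71 CPM (log2 change -2.08, SE 0.2, edgeR adjusted p = 1.14e-05), and next to DKK1, a secreted WNT inhibitor, which fell by 3.76 on the log2 scale from under 1 CPM. The sources used here do not give the strand use in the counting, so reads of CSTF2T and PRKG1 cannot be told apart where they overlap. NEFM, the medium neurofilament subunit, had 223 counts in WT and 2 in sgKMT2B, a ratio of 139 with a 95% counting interval of 38.0 to 1154, and 0 in both other knockouts.

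CA2, carbonic anhydrase II, was almost lost. It read 166 and 185 CPM in WT and 1.97 and 2.25 CPM in sgKMT2B (log2 change -6.37, SE 0.15, edgeR adjusted p = 1.17e-11). In sgKDM5C and sgKDM6A it read 71.6 and 79.2 and 70.8 and 74.4 CPM, below WT and far above sgKMT2B. The teneurin TENM1, a large adhesion receptor of neurons, fell from 13.2 and 11.2 to 0.321 and 0.0788 CPM and was low in sgKDM6A too, at 0.555 and 0.286 CPM. MMP16, a membrane-bound metalloproteinase, fell from 4.79 and 5.26 to 0.0402 and 0.118 CPM and was low in sgKDM5C too, at 0.219 and 0.265 CPM.

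INSM1 and LRP2 were also among the 15 largest decreases of genes with at least 5 CPM in the higher group. INSM1, a factor of neuroendocrine differentiation, read 20.04 and 22.4 CPM in WT and 0.281 and 0.867 CPM in sgKMT2B (log2 change -5.19, SE 0.29, edgeR adjusted p = 9.39e-08). LRP2, the endocytic receptor megalin of kidney tubules, read 41.3 and 44.4 CPM in WT and 1.77 and 1.93 CPM in sgKMT2B (log2 change -4.53, SE 0.17, edgeR adjusted p = 3.22e-09). All 4 values of these genes in sgKDM5C and sgKDM6A were above those of sgKMT2B. PPP2R2C, HS6ST3, HES7, SUSD4 and NRXN3 fell by 4.71, 4.64, 4.32, 4.14 and 4.0 on the log2 scale. SKIC2, a helicase of RNA decay, had a fitted change of -5.16 with an SE of 1.46, and its call was lost without WT replicate 1, sgKMT2B replicate 1 or sgKMT2B replicate 2 (adjusted p = 0.159, 0.0706 and 0.101).

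The largest increases of genes at 5 CPM or more in the higher group included genes that were nearly silent in WT. CLCN4, an endosomal chloride and proton exchanger, read 0.0826 and 0.52 CPM in WT and 14.5 and 16.2 CPM in sgKMT2B (log2 change 5.86, SE 0.53, edgeR adjusted p = 6.72e-06), against 0.473 and 0.757 CPM in sgKDM5C and 0.0793 and 0.465 CPM in sgKDM6A. Its neighbour WWC3 rose as well, by 2.73 on the log2 scale. SLITRK3, a synaptic adhesion protein, rose from 0.248 and 0.39 to 8.68 and 10.4 CPM and was high in sgKDM6A too, at 12.7 and 13.8 CPM. The fibrillar collagen COL3A1 rose from 1.32 and 1.69 to 40.3 and 46.1 CPM (log2 change 4.86, SE 0.24, edgeR adjusted p = 2.72e-08), with 1.86 and 1.1 CPM in sgKDM5C and 0.0793 and 0.107 CPM in sgKDM6A.

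Further genes rose at least 8-fold. STING1, the adaptor of cytosolic DNA sensing, rose from 1.49 and 1.17 to 14.7 and 16.8 CPM (log2 change 3.54, SE 0.36, edgeR adjusted p = 1.5e-05). INPP5D, the phosphatase SHIP1 of haematopoietic signalling, rose from 3.8 and 4.87 to 35.9 and 33.3 CPM, and FLRT3, an adhesion protein that binds latrophilins, from 2.27 and 1.82 to 16.8 and 18.9 CPM. BCHE (butyrylcholinesterase), LY6E, SNCG, KRTAP19-1 and CEL rose by 3.69, 3.83, 3.4, 3.18 and 3.08 on the log2 scale. Each of these 8 genes was also higher than in sgKDM5C and in sgKDM6A by the direct tests. NCOA5 and SAMD9 rose by 3.06 and 3.44, to levels that did not pass the test against either other knockout. BCYRN1, a small cytoplasmic RNA of neurons, read 0.924 and 11.9 CPM in the sgKMT2B libraries, so that its change of 3.2 rests on replicate 2 (adjusted p = 0.783 without it, 0.146 without WT replicate 1 and 0.0838 without WT replicate 2).

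**Figure D2:**
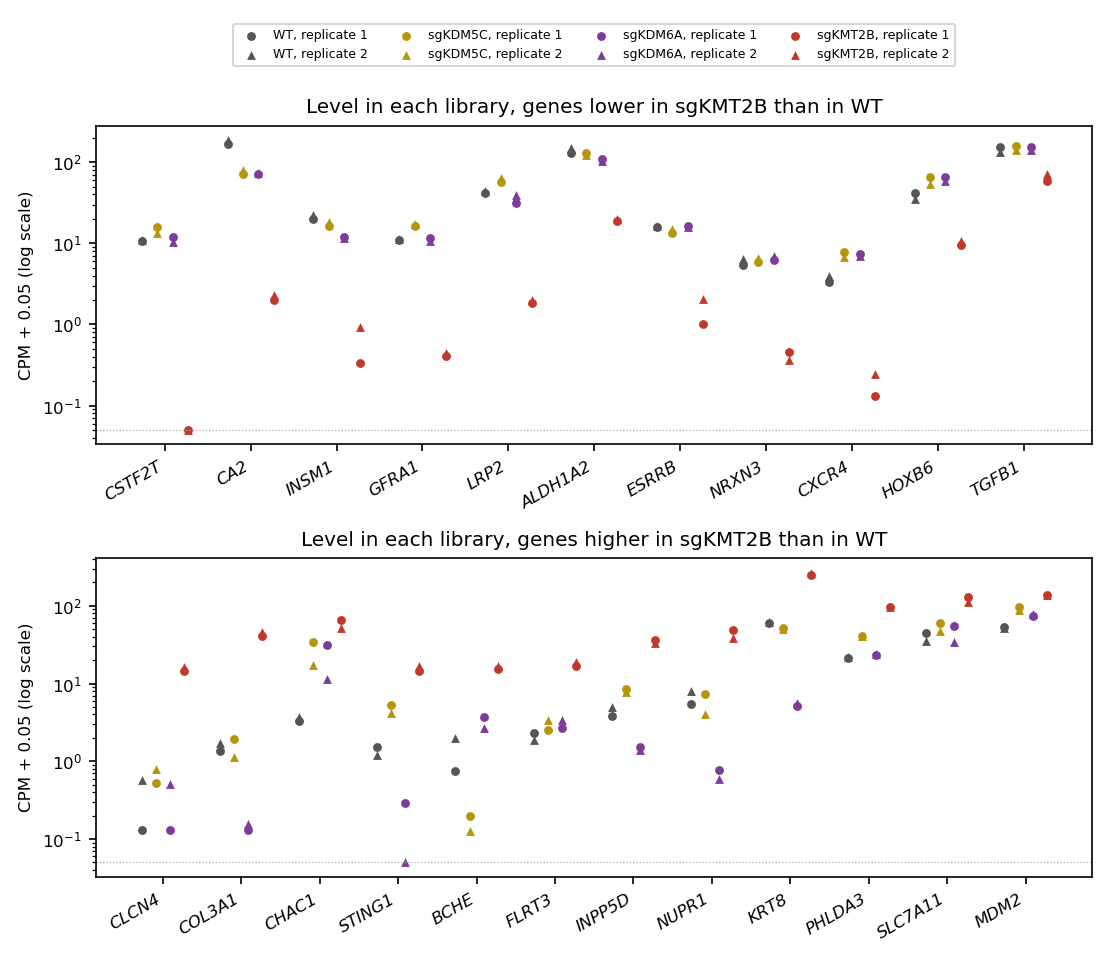
Level of selected genes in each of the 8 libraries (CPM plus 0.05, log scale), grouped by WT, sgKDM5C, sgKDM6A and sgKMT2B, with a circle for replicate 1 and a triangle for replicate 2. CA2 and LRP2 are lowest in both sgKMT2B libraries, and COL3A1 and CLCN4 are highest there.

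Counts of 0 in both libraries of a group occurred in both directions. Of the tested genes with counts in WT and none in sgKMT2B, 8 of 15 were called, and of those with counts in sgKMT2B and none in WT, 12 of 26. The chemokine CXCL12 had 105 counts in WT and 0 in sgKMT2B, at least 43.6-fold lower, and its receptor CXCR4 fell with it, from 3.26 and 3.9 to 0.0803 and 0.197 CPM (log2 change -4.63, SE 0.39, edgeR adjusted p = 2.91e-06). In the other knockouts CXCR4 read 6.81 to 7.79 CPM and CXCL12 2.14 to 8.02 CPM. The peptide transporter SLC15A1 (68 counts), ZNF595 (34 counts) and CNKSR2 (17 counts) were at least 28.2-fold, 14.1-fold and 7.06-fold lower. In the other direction ZNF804A had 154 counts in sgKMT2B against 0 in WT, at least 41.2-fold higher, NLRP11 had 47 (at least 12.6-fold) and SAMD9L had 33 (at least 8.83-fold).

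HOX genes, which encode homeodomain factors that give cells their position along the body axis and are classic targets of H3K4 methyltransferases of the MLL family, were mainly lower. Of 38 HOX genes tested, 18 fell (47.4%) and 2 rose, with a median log2 change of -0.56, beside 14.5% called lower and a median of 0.00 over all genes. HOXB6 read 41.2 and 34.6 CPM in WT and 9.4 and 10.8 CPM in sgKMT2B (log2 change -1.91, SE 0.15, edgeR adjusted p = 1.55e-06). HOXB9, the most abundant of them, read 279.8 and 303 CPM in WT and 107 and 114 CPM in sgKMT2B (log2 change -1.4), and HOXA11 71.6 and 82.5 CPM in WT and 21.4 and 22.3 CPM in sgKMT2B (-1.82). In all 3 genes both sgKMT2B libraries lay far below both WT libraries.

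The 4 clusters took unequal parts. Falls were called for 8 of 11 HOXA genes, 6 of 9 HOXB genes, 2 of 9 HOXC genes and 2 of 9 HOXD genes. Within HOXB, HOXB5, HOXB6, HOXB8 and HOXB9 fell by 1.40 to 1.91 on the log2 scale, while HOXB13, which lies apart from the rest of its cluster, rose from 38 and 33.3 to 55.2 and 50.8 CPM (0.57). The other rise, of HOXD1, rests on 24 counts in sgKMT2B against 1 in WT and was lost without WT replicate 2 (adjusted p = 0.0975) and without either sgKMT2B replicate (adjusted p = 0.089 and 0.051). The HOXA genes lie in a 10 Mb part of chromosome 7 whose genes, the HOXA genes among them, had a median of -0.22. The 27 HOX genes outside such parts gave 10 lower and 2 higher, where 13.2% of all genes were lower and 12.7% higher.

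**Figure D3:**
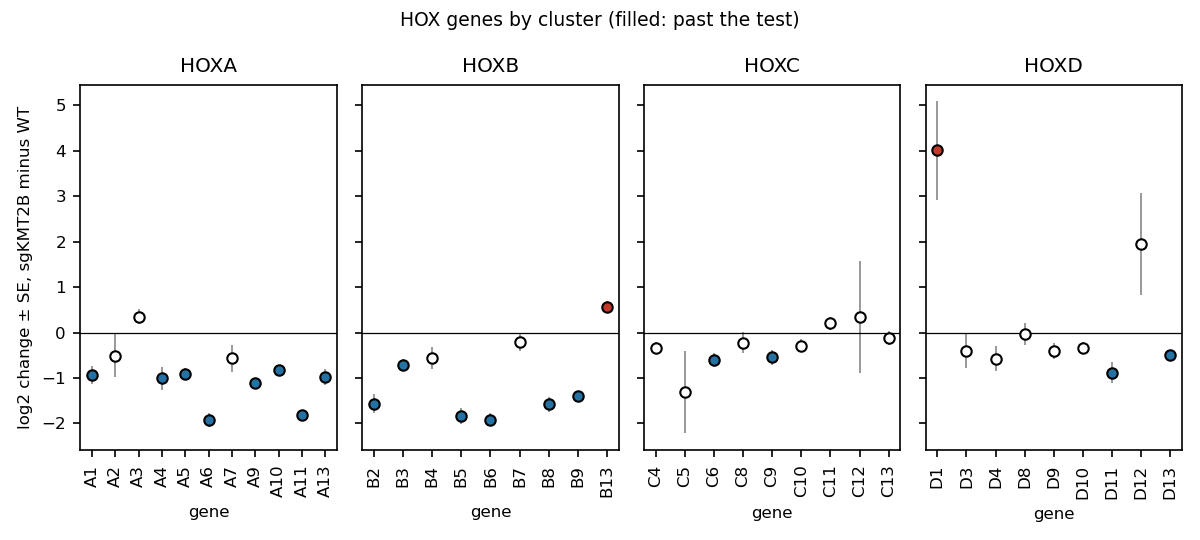
Log2 change of sgKMT2B against WT, with SE bars, for each of the 38 tested HOX genes in cluster order, filled where called. Most HOXA and HOXB genes lie below 0, HOXB13 lies above it, and most HOXC and HOXD genes do not pass the test.

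Against the other knockouts more HOX genes were lower. Measured directly, 28 of 38 were lower in sgKMT2B than in sgKDM5C (11.6% of all genes were) and 27 lower than in sgKDM6A (12.4%). The 3 comparisons share the sgKMT2B libraries. Against WT, 12 HOX genes were higher and 2 lower in sgKDM5C, and 16 higher and 4 lower in sgKDM6A. Over all 17527 genes, 1949 were higher and 2020 lower in sgKDM5C, and 2201 and 2558 in sgKDM6A. HOXB5, for example, read 12.7 and 10.4 CPM in WT, 3.58 and 2.88 in sgKMT2B, 34.3 and 34.4 in sgKDM5C and 21.5 and 22.5 in sgKDM6A. Called lower against all 3 groups were 17 of 38 HOX genes, beside 4.66% of all genes, and HOXB13 was called higher against all 3.

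Some further lists of lineage regulators held more falls than rises, where 14.5% of all genes were lower and 13.7% higher. Of 16 pluripotency and embryonic factors, 8 fell (50.0%) and 2 rose (1 without either sgKMT2B replicate), with a median of -0.60. ESRRB, an orphan nuclear receptor of pluripotent cells, read 15.8 and 16.2 CPM in WT and 0.964 and 2.01 CPM in sgKMT2B (log2 change -3.42, SE 0.25, edgeR adjusted p = 9.88e-07). UTF1 read 28 and 25.2 CPM in WT and 1.61 and 2.48 CPM in sgKMT2B, and TFCP2L1, also a factor of collecting duct cells, 37.6 and 37.6 CPM in WT and 6.55 and 6.94 CPM in sgKMT2B. ESRRB read 13.3 and 15.1 CPM in sgKDM5C and 16.2 and 16 CPM in sgKDM6A, near WT, while UTF1 was also low in sgKDM6A at 4.6 and 3.68 CPM. Basic helix-loop-helix lineage factors gave 14 lower (35.9%) and 2 higher of 39 (1 higher when any 1 of the 4 libraries was left out), among them HES1 (82.5 and 109 to 21.2 and 25.4 CPM), HES6 (-1.39) and ID4 (-0.82). Homeobox genes outside the HOX clusters gave 14 lower (21.9%, beside 14.5% of all genes) and 7 higher of 64, and 9 and 3 without sgKMT2B replicate 1. Outside the moved genome parts described further on, 16% of 50 were lower, near the 13.2% of all genes there. CUX2, EMX1 and LHX4, homeobox factors of the brain, fell by 2.52, 1.94 and 1.93. The basic helix-loop-helix list also held 10 falls and 6 rises against WT in sgKDM5C, and 14 falls and 3 rises in sgKDM6A.

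Of 30 kidney lineage genes tested, 13 fell (43.3%, beside 14.5% of all genes). Among them were GFRA1 and RET, which together form the receptor for GDNF in the growing ureteric bud. GFRA1 read 11 and 11.3 CPM in WT and 0.362 and 0.394 CPM in sgKMT2B (log2 change -4.87, SE 0.24, edgeR adjusted p = 2.72e-08), and RET 20.8 and 20.9 CPM in WT and 5.83 and 7.17 CPM in sgKMT2B (log2 change -1.68, SE 0.19, edgeR adjusted p = 4.89e-05). PODXL, podocalyxin of podocytes, fell from 76.9 and 76.8 to 20.6 and 17.6 CPM, and WNT4, the inducer of nephron formation, by 2.42 on the log2 scale from about 3 CPM. Called lower against WT, sgKDM5C and sgKDM6A alike were 9 of the 30, beside 4.66% of all genes. WT1 and SALL1 made up the 2 rises, and neither passed without WT replicate 1 (adjusted p = 0.137 and 0.0611), sgKMT2B replicate 1 (0.153 and 0.19) or sgKMT2B replicate 2 (0.063 and 0.126). Outside the moved genome parts, in which GFRA1 and RET lie, 6 of 19 were lower and 2 higher, beside 13.2% and 12.7% of all genes there.

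Retinoic acid is made from retinol by dehydrogenases, acts through RAR and RXR receptors and is broken down by CYP26 enzymes, and its genes moved in both directions. ALDH1A2, which makes retinoic acid in the embryo, read 129.8 and 149.9 CPM in WT and 18.7 and 19.9 CPM in sgKMT2B (log2 change -2.86, SE 0.11, edgeR adjusted p = 3.22e-09), and 102 to 131 CPM in the other knockouts. The degrading enzymes fell as well, CYP26B1 by 1.73 and CYP26A1 by 1.41 (not without sgKMT2B replicate 1, adjusted p = 0.0973), as did the reductase DHRS3 by 1.09. STRA6, the retinol importer, and RDH10, which makes retinal, rose by 1.8 and 0.88. In all, 6 of 17 genes of this list were lower (35.3%, beside 14.5% of all genes) and 4 higher (23.5%, beside 13.7%). Of these falls and rises, 5 and 3 were called the same way against all 3 groups, as were 4.66% and 2.81% of all genes.

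Over all genes 13.7% were higher and 14.5% lower in sgKMT2B. Among the signalling lists the NOTCH, FGF, WNT, TGF-beta and receptor tyrosine kinase genes held more called falls than rises. Against WT, sgKDM5C held 7, 10, 6, 10 and 12 falls in them and 3, 1, 7, 2 and 4 rises (2020 and 1949 over all genes). In sgKDM6A it was 14, 13, 20, 18 and 15 falls and 2, 8, 8, 11 and 5 rises (2558 and 2201 over all genes). These comparisons share the WT libraries. Hedgehog genes (3 higher and 1 lower of 18), YAP and TEAD targets (5 and 5 of 28) and GPCR and RGS genes (14 and 13 of 82) did not lean lower in sgKMT2B. Without sgKMT2B replicate 1 those 3 lists gave 2 and 1, 2 and 4, and 7 and 7. In the NOTCH list 9 of 29 fell (31.0%, beside 14.5% of all genes) and 3 rose (1 rose without either sgKMT2B replicate). The ligands DLL4 and JAG2 fell by 2.56 and 1.13, while the target HEY1 rose from 233 and 257 to 334 and 351 CPM, opposite to HES1. In the FGF list 10 of 37 fell (27%) and 4 rose (1 rose without WT replicate 2, and 2 without WT replicate 1 or sgKMT2B replicate 1). Outside the moved genome parts 5 of 29 FGF genes fell (17.2%) and 4 rose (13.8%), near the 13.2% and 12.7% of all genes there. In the Slit, Robo and netrin guidance list 7 of 19 fell (36.8%) and 2 rose (1 without sgKMT2B replicate 1). SLIT2, a repulsive guidance cue, read 546 and 516 CPM in WT and 172 and 203 CPM in sgKMT2B (log2 change -1.5, SE 0.15, edgeR adjusted p = 1.87e-05), and SLIT1 32.9 and 37.7 CPM in WT and 6.79 and 5.75 CPM in sgKMT2B.

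The WNT, TGF-beta and receptor tyrosine kinase lists gave 16 of 57, 20 of 61 and 19 of 47 lower (28.1%, 32.8% and 40.4%, beside 14.5% of all genes) and 3, 9 and 7 higher. Without sgKMT2B replicate 1 the lower ones were 7, 12 and 13, without sgKMT2B replicate 2 they were 13, 15 and 12, and without WT replicate 2 they were 10, 17 and 12. The higher ones were 3, 4 and 5 without sgKMT2B replicate 1, 3, 8 and 4 without sgKMT2B replicate 2, and 6, 10 and 5 without WT replicate 1. TGFB1, the founding ligand of its family, nevertheless read 154 and 132 CPM in WT, 59.3 and 71.8 CPM in sgKMT2B and 139 to 157 CPM in the other knockouts (log2 change -1.13, SE 0.12, edgeR adjusted p = 2.45e-05). WNT7B and BMP8B fell by 2.9 and 1.43.

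Among the neuronal cytoskeletal, vesicle and secretory genes, many of which HEK293T cells express, 19 of 45 fell (42.2%) and 2 rose (3 without WT replicate 1), with a median of -0.48. Over all genes 14.5% were called lower and 13.7% higher. ENO2, the neuronal enolase, read 118 and 115 CPM in WT and 36.8 and 41.8 CPM in sgKMT2B (log2 change -1.57, SE 0.1, edgeR adjusted p = 2.76e-07). It read 171 and 180.4 CPM in sgKDM5C and 58.5 and 57.8 CPM in sgKDM6A, so sgKMT2B was lowest of the 4 groups. Of 107 ion channel genes, 28 fell (26.2%, beside 14.5% of all genes) and 15 rose (14%, near the 13.7% of all genes). The potassium channels KCNH2, KCNJ4 and KCNJ11 fell by 2.43, 2.49 and 1.82, each also lower than in both other knockouts.

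Neuronal adhesion receptors divided, with 16 of 38 lower (42.1%) and 8 higher (21.1%), beside 14.5% and 13.7% of all genes. Without sgKMT2B replicate 1 it was 9 and 5, without sgKMT2B replicate 2 it was 9 and 6, and without WT replicate 2 it was 10 and 7. NRXN3, TENM1, TENM4 and NRCAM were among the falls, at -4.0, -5.9, -3.31 and -2.09. SLITRK3, FLRT3, ADGRL3 and SLITRK5 were among the rises, at 4.95, 3.1, 2.73 and 1.2. ADGRL3 read 0.868 and 1.62 CPM in WT, 7.75 and 8.08 CPM in sgKMT2B, 0.0728 and 0.151 CPM in sgKDM5C and 19.1 and 19.97 CPM in sgKDM6A, so the highest values were in sgKDM6A, as they were for SLITRK3 and SLITRK5. The 4 neuronal markers NEFL, NEFM, ENO2 and STMN2 summed to 137 and 136 CPM in WT and 42.9 and 49.3 CPM in sgKMT2B.

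Epithelial genes did not move as one. KRT8, a keratin of simple epithelia, rose from 59.9 and 61.3 to 247 and 265 CPM (log2 change 2.08, SE 0.1, edgeR adjusted p = 1.83e-08), while its usual partner KRT18 fell from 100.4 and 94.3 to 61 and 64.8 CPM (log2 change -0.63, SE 0.1, edgeR adjusted p = 0.000692). The tricellular junction protein LSR fell from 87.5 and 75.9 to 17.4 and 13.9 CPM (log2 change -2.39, SE 0.14, edgeR adjusted p = 1.04e-07), and CDH1 (E-cadherin), CD24 and the splicing factor ESRP2 fell by 1.53, 2.52 and 1.41. Altogether 6 of 20 fell (30%) and 2 rose (10%), beside 14.5% and 13.7% of all genes. In sgKDM6A, KRT8 read only 5.15 and 5.61 CPM. The rise of the summed epithelial markers, from 176 and 173 CPM in WT to 314 and 335 CPM in sgKMT2B, came from KRT8, since KRT18 and CDH1 were lower and EPCAM stayed under 4 CPM.

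Collagen genes moved in both directions. The fibrillar collagens COL3A1, COL5A1 and COL5A2 rose, COL5A2 from 1.57 and 2.21 to 9.88 and 14.7 CPM (log2 change 2.72, SE 0.28, edgeR adjusted p = 1.86e-05), and COL6A3 from 0 and 0.26 to 2.33 and 2.44 CPM. COL3A1 and COL5A2 are neighbours on chromosome 2. The basement membrane chains COL4A3 and COL4A4, a divergent gene pair of kidney basement membrane, fell together. COL4A4 had 152 counts in WT and 2 in sgKMT2B, a ratio of 94.7 with a 95% counting interval of 25.8 to 789, and COL4A3 had 58 and 2, a ratio of 36.1 (9.56 to 305). COL2A1, also a fibrillar collagen, fell from 4.75 and 4.22 to 0.643 and 0.394 CPM and read 0.328 and 0.227 CPM in sgKDM5C and 0.0793 and 0.214 CPM in sgKDM6A. In all, 10 of 31 collagen genes fell (32.3%) and 5 rose (16.1%), beside 14.5% and 13.7% of all genes.

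Immediate early genes, which respond within minutes to growth factors and stress, leaned lower than WT in each of the 3 knockouts. Of 34 tested, 16 fell in sgKMT2B (47.1%, beside 14.5% of all genes) and 4 rose (beside 13.7%), with a median of -0.61. JUN read 2418 and 2568 CPM in WT and 249.8 and 564 CPM in sgKMT2B (log2 change -2.62, SE 0.42, edgeR adjusted p = 0.000509), RHOB 1799 and 2311 CPM in WT and 221 and 481 CPM in sgKMT2B, and CCN1 256 and 313 CPM in WT and 37.9 and 46.6 CPM in sgKMT2B (log2 change -2.75, SE 0.14, edgeR adjusted p = 3.03e-08). JUN and RHOB had the largest falls in absolute CPM of any called gene. ATF3, KLF6 and MYC fell by 2.29, 1.8 and 1.25. The counts against WT were 15 lower in sgKDM5C and 16 lower in sgKDM6A, and these comparisons share the WT libraries. Over all 17527 genes, 2020 were lower in sgKDM5C and 2558 in sgKDM6A. Directly, 1 of the 34 was lower in sgKMT2B than in sgKDM5C and 8 were higher, beside 11.6% and 10.5% of all genes. MYC read 74.8 and 74.4 CPM in sgKDM5C. EGR2 was the single member lower against all 3 groups (-3.07, from 1.57 and 0.78 CPM), and KLF2 and BTG2 were among 3 higher against all 3.

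A list of genes that respond to DNA damage or inhibit the cell cycle held more called rises than falls. Of 38 such genes, 21 were higher (55.3%) and 2 lower (4 without WT replicate 2), with a median of 0.43, beside 13.7% called higher over all genes. PHLDA3, an inhibitor of AKT, read 21.4 and 21.8 CPM in WT and 97.2 and 95.2 CPM in sgKMT2B (log2 change 2.16, SE 0.11, edgeR adjusted p = 3.36e-08). MDM2, a ubiquitin ligase, read 53.5 and 52.1 CPM in WT and 138 and 136 CPM in sgKMT2B (log2 change 1.38, SE 0.1, edgeR adjusted p = 9.52e-07), and the cell cycle inhibitor CDKN1A 90.9 and 115 CPM in WT and 171 and 201 CPM in sgKMT2B (log2 change 0.86, SE 0.12, edgeR adjusted p = 0.000217). In these genes the replicates of sgKMT2B lay close together and above WT. RRM2B, SESN1, BTG2 and GDF15 rose by 1.18, 1.05, 0.97 and 1.43.

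The falls in that list, of GADD45A (-1.35) and the BH3-only gene PMAIP1 (-1.31), were called against WT. Called higher against all 3 groups were 13 of the 38, beside 2.81% of all genes. CDKN1A, for example, read 105 and 97.5 CPM in sgKDM5C and 39.1 and 37.9 CPM in sgKDM6A. Outside the moved genome parts 15 of 29 were higher and 1 lower, beside 12.7% and 13.2% of all genes there. The lean upward did not extend to DNA repair genes at large. Genes of homologous recombination, Fanconi and mismatch repair, a separate list, gave 9 higher of 54 (16.7%, near the 13.7% of all genes) and 4 lower.

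Genes of the ATF4 and amino acid response, which cells switch on when amino acids are short or proteins misfold, rose as well. Of 36 tested, 17 were higher (47.2%, beside 13.7% of all genes) and 4 lower (beside 14.5%), with a median of 0.56. Leaving out either sgKMT2B library left 2 lower. CHAC1, which degrades glutathione, read 3.26 and 3.71 CPM in WT and 65.3 and 51.9 CPM in sgKMT2B (log2 change 4.08, SE 0.43, edgeR adjusted p = 2.39e-05), and the stress cofactor NUPR1 5.41 and 7.93 CPM in WT and 49.3 and 38.2 CPM in sgKMT2B (log2 change 2.73, SE 0.26, edgeR adjusted p = 1.01e-05). The cystine importer SLC7A11 rose from 44.1 and 35.2 to 128 and 113 CPM, and TRIB3, SESN2, ATF5 and CEBPB by 1.43, 1.57, 1.73 and 1.48. ATF4 had a log2 change of 0.34 (adjusted p = 0.133, but 0.0203 without WT replicate 2 and 0.00101 with no filter on low counts), and its target ASNS one of 0.25 (adjusted p = 0.369). CHAC1 was above WT in the other knockouts too, at 33.7 and 17.2 CPM in sgKDM5C and 31.1 and 11.4 CPM in sgKDM6A. Against all 3 groups 7 of the 36 genes were called higher, beside 2.81% of all genes. Outside the moved genome parts 14 of 27 were higher and 2 lower, beside 12.7% and 13.2% of all genes there.

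Zinc finger genes with a ZNF symbol, many of which carry a KRAB domain and silence transposable elements, leaned upward as a large family. Of 462 tested, 180 were higher (39.0%) and 22 lower, with a median of 0.40, and without sgKMT2B replicate 1 it was 90 higher and 10 lower. Over all genes 13.7% were called higher and 14.5% lower. On chromosome 19, where many ZNF genes stand in arrays, 101 of 202 were higher and 6 lower, and elsewhere 79 of 260 and 16. ZNF266 rose from 16.4 and 18.3 to 48.1 and 42.5 CPM (log2 change 1.39, SE 0.14, edgeR adjusted p = 1.15e-05), and ZNF416 from 3.51 and 2.4 to 12.1 and 10.7 CPM. Other genes of chromosome 19 gave 123 higher and 169 lower of 1024. Against WT, 114 of the 462 were higher in sgKDM5C and 107 in sgKDM6A, beside 1949 and 2201 of all 17527 genes. In sgKMT2B 29 of the 462 were higher against all 3 groups, beside 2.81% of all genes. Of the 180 and 22, 149 and 16 lie outside the moved genome parts. ZNF503 and ZNF462, which carry no KRAB domain, fell by 1.19 and 3.1.

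Interferon-stimulated genes gave 16 higher (36.4%, beside 13.7% of all genes) and 4 lower of 44, but 8 and 1 without sgKMT2B replicate 1, 10 and 2 without sgKMT2B replicate 2, and 11 and 2 without WT replicate 2. SP110, IFITM3 and ZC3HAV1, which restrict viruses, rose by 2.89, 1.3 and 0.92. USP18, a feedback inhibitor of the pathway, fell from 44 and 48.2 to 23.4 and 23.1 CPM. Called higher against all 3 groups were 3 of the 44, beside 2.81% of all genes.

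**Figure D4:**
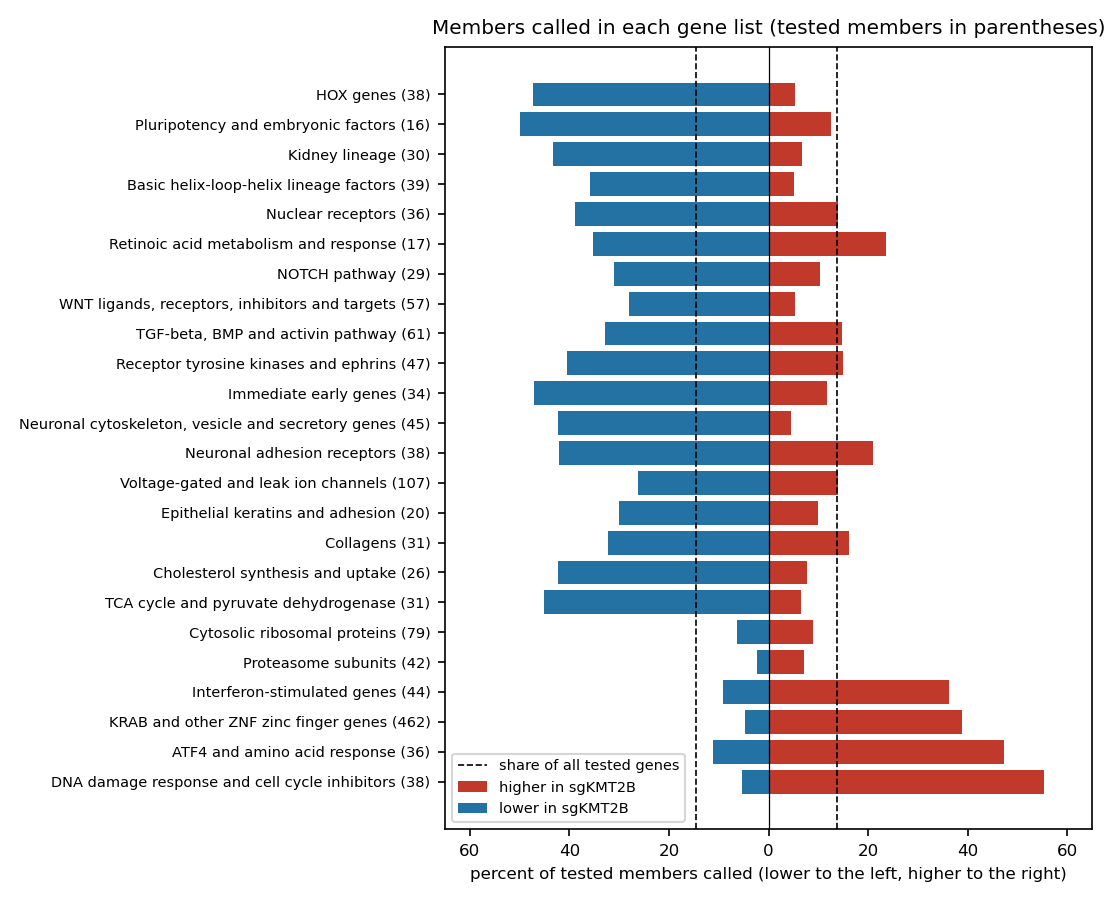
Share of tested members called higher and called lower in sgKMT2B against WT for selected gene lists, with the share over all 17527 tested genes drawn as reference lines. The DNA damage, ATF4 and zinc finger lists stand out upward and the HOX, pluripotency, immediate early and kidney lists downward.

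Of 79 cytosolic ribosomal protein genes 7 were higher and 5 lower (15.2% called, beside 28.1% of all genes), but 23 were higher and 9 lower without WT replicate 1, 4 higher without WT replicate 2, 4 higher and 3 lower without sgKMT2B replicate 1, and 1 higher without sgKMT2B replicate 2. Metabolic lists differed in direction, and their counts stand beside 13.7% called higher and 14.5% called lower over all genes. Of amino acid carriers 34.2% were higher and 10.5% lower. Of genes of one-carbon, serine and nucleotide synthesis 27.7% were higher and 12.8% lower. Amino acid carriers gave 13 higher and 4 lower of 38 (6 higher without sgKMT2B replicate 1), and genes of one-carbon, serine and nucleotide synthesis 13 and 6 of 47 (5 higher without sgKMT2B replicate 1). In the cholesterol list 11 of 26 fell (42.3%), 2 of them by at least 2-fold, and 4 fell without sgKMT2B replicate 1. In the TCA cycle list 14 of 31 fell (45.2%), 1 of them by at least 2-fold, and the count was 6 without sgKMT2B replicate 1 and 9 without sgKMT2B replicate 2. SQLE, an enzyme of sterol synthesis, fell by 0.52 (not without sgKMT2B replicate 1, adjusted p = 0.0565). Against WT, 12 genes of the cholesterol list fell and 3 rose in sgKDM5C, and 8 fell and 4 rose in sgKDM6A. GNAS, NUCKS1 and MYBL2 were among the abundant genes that rose in sgKMT2B. NUCKS1 rose from 569 and 550.1 to 1097 and 977 CPM, with 768 and 714 CPM in sgKDM5C and 713 and 704 CPM in sgKDM6A. BSG, basigin of the plasma membrane, fell from 1735 and 1555 to 1066 and 1104 CPM and was lower than in both other knockouts.

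Genes that set sgKMT2B apart from all 3 other groups were counted too. In the same direction against WT, sgKDM5C and sgKDM6A, 492 genes were higher (2.81%) and 817 lower (4.66%). Without sgKMT2B replicate 1 these were 207 and 478, and without replicate 2 the higher ones were 210. Singly, sgKMT2B differed from sgKDM5C in 3882 genes (22.1%, 10.5% higher) and from sgKDM6A in 4356 (24.9%, 12.5% higher). The 3 contrasts share the sgKMT2B libraries. Ranked by the smallest of the 3 changes, CSTF2T, CXCL12, CA2, GFRA1, HS6ST3, CXCR4 and COL4A4 were among the leading falls, and CLCN4, COL3A1, COL5A2, SNCG, FLRT3, BCHE, KRTAP19-1 and NUPR1 headed the rises.

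Changed genes were not evenly spread over the genome. Among the 11243 genes averaging at least 5 CPM over all libraries, 17.2% were called higher and 18.0% lower. On chromosome 10, 209 of 470 were lower and 23 higher, with a median log2 change of -0.33, and on chromosome 13, 93 of 197 were lower and 9 higher, with a median of -0.39. On chromosome 4 before 10 Mb, 45 of 66 were lower and 1 higher (median -0.49). On chromosome 20 from 30 Mb, 120 of 214 were higher and 8 lower (median 0.40), and on chromosome 1 from 140 Mb, 198 of 475 were higher and 26 lower (median 0.30). The same parts had medians between -0.05 and 0.11 in sgKDM5C and sgKDM6A against WT. Genes that differed from both other knockouts were frequent there. Lower in sgKMT2B than in both were 128 of 470 on chromosome 10, 79 of 197 on chromosome 13 and 36 of 66 on chromosome 4 before 10 Mb, beside 803 of all 11243. Higher than in both were 94 of 214 on chromosome 20 from 30 Mb and 128 of 475 on chromosome 1 from 140 Mb, beside 719 of all 11243.

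**Figure D5:**
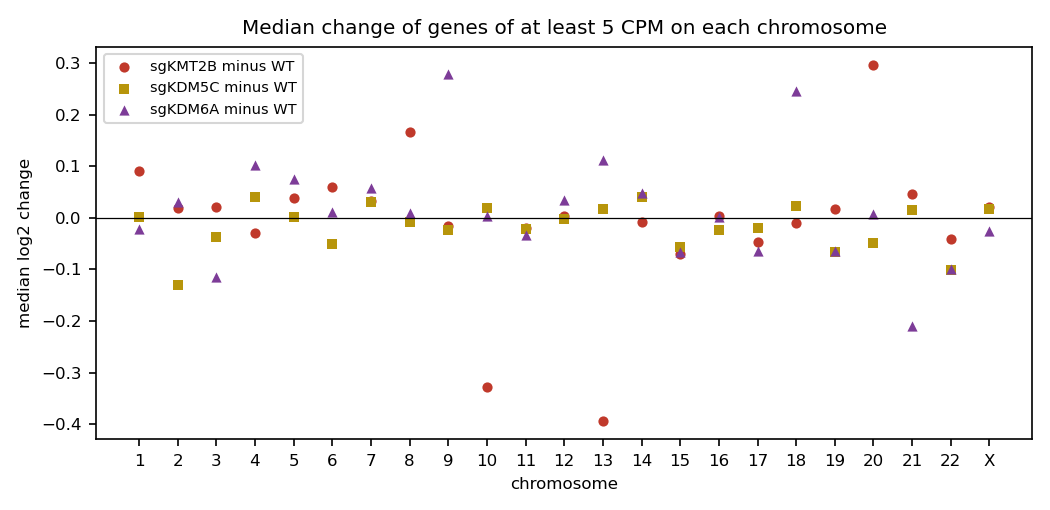
Median log2 change against WT of the genes with at least 5 CPM on each chromosome, for sgKMT2B and for both other knockouts. Chromosomes 10 and 13 of sgKMT2B lie lowest, at -0.33 and -0.39, where the other knockouts stay near 0.

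In fold terms these medians are 1.25 on chromosome 10, 1.31 on chromosome 13, 1.41 on chromosome 4 before 10 Mb, 1.32 on chromosome 20 from 30 Mb and 1.23 on chromosome 1 from 140 Mb. Of 218 parts of 10 Mb with at least 20 such genes, 51 had a median of 0.2 or more in either direction, 28 higher and 23 lower. They held 18.0% of tested genes and 24.4% of called genes (1201 of 4931). Parts with fewer genes were not marked, among them stretches of chromosomes 10 and 13, and count as outside. A part's median includes the listed genes it holds, so leaving out moved parts cannot separate position from a list's own changes. The part of genome position in the results of single genes was not tested. CSTF2T, CXCL12, GFRA1, RET, UTF1 and PRKG1 lie on chromosome 10, and their falls of 1.68 or more on the log2 scale go beyond its median of -0.33. SNCG on chromosome 10 and SLITRK5 on chromosome 13 rose against those medians. The rises of GNAS (0.44) and MYBL2 (0.64) on chromosome 20 stand beside a median of 0.40, and the rise of NUCKS1 (0.89) on chromosome 1 beside 0.30.

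Runs of neighbouring protein-coding genes called in the same direction, at least 5 long, numbered 28. The longest held 11 zinc finger genes on chromosome 19 (57466663 to 57758159 in GRCh38), from ZNF772 to ZNF776, which rose by a median of 1.37. A further array on the same chromosome, ZNF155 to ZNF234 (43967862 to 44160309), rose by a median of 1.20 over 8 genes, of which ZNF155 lost its call on leaving out WT replicate 2 (adjusted p = 0.0918) or sgKMT2B replicate 1 (0.203), and ZNF605 to ZNF268 on chromosome 12 (132918308 to 133214831) by 1.03 over 7. Falls ran through AMER2, MTMR6, NUP58, ATP8A2 and SHISA2 on chromosome 13 (25161684 to 26051031), with a median of -2.30 beside -0.39 for that chromosome. On chromosome 7 (27162435 to 27662995) HOXA9, HOXA10, HOXA11, HOXA13 and their neighbour HIBADH fell without a break, though HIBADH did not pass when any 1 of the 4 libraries was left out (adjusted p = 0.0825 to 0.299).

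Promoters matched 10991 of 13619 tested protein-coding genes, and 19.7% of these had an observed to expected ratio under 0.6. The share was 19.3% among genes called higher and 17.9% among genes called lower. At 2-fold or more it was 36.2% among the rises and 24.4% among the falls. Genes of low level have more such promoters. Where the higher group read under 5 CPM the shares were 42.0% of those tested, 50.6% of 170 2-fold rises and 31.2% of 202 2-fold falls. In that class the falls thus had fewer such promoters than the tested genes. Where the higher group read 5 to 20 CPM the shares were 21.5% of those tested, 24.2% of the 2-fold rises and 24.2% of the 2-fold falls, and where the higher group reached at least 20 CPM the shares were 12.5% of those tested, 23.3% of the 2-fold rises and 15.7% of the 2-fold falls.

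Long genes fell more often. Of 2807 protein-coding genes of at least 100 kb, 22.8% were called lower and 13.4% higher, while of genes under 10 kb 13% were lower and 17.2% higher. Against sgKDM5C and sgKDM6A the share of genes of at least 100 kb that was lower in sgKMT2B was 17.0% and 19.8%, against 11% and 13.2% higher.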

How the data were processed

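RNA from HEK293T cells was sequenced as poly(A)-selected mRNA in 8 libraries of 4 groups, 2 a group. The authors deposited raw counts per gene, made with STAR and HTSeq 0.11.2 on GRCh38 per the submitters' processing notes. The sources used here do not give the aligner version, the annotation release or the strand setting. Library totals ran from 15868353 to 27591724 counts, which limits precision for genes of a few counts, and intervals cover counting error only.

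Genes were filtered with filterByExpr by group, scaled by TMM and tested with edgeR 4.0.16 (quasi-likelihood F test, R 4.3.3) over all 8 libraries, which share 1 estimate of spread, with contrasts of sgKMT2B against WT, sgKDM5C and sgKDM6A. P-values were adjusted by Benjamini-Hochberg over all tested genes and calls made at 0.05. The script was tested on simulated data. Alternatives were upper-quartile scaling, DESeq2 1.42.0, other filters, the 4 libraries alone, a replicate block, each library left out, and thinning to 1 depth. An alternative added after seeing the data left out genes in 10 Mb parts with a median log2 change of 0.2 or more in either direction. Only parts with at least 20 genes could be marked, and they were marked from the same changes.

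The comparison and the 101 gene lists were chosen with earlier results of these data known. Named genes were KMT2B and its relatives, the 15 largest changes in each direction at 5 CPM or more, up to 4 called members of each list and direction with the smallest p, the 8 largest differences in CPM, the 8 largest changes against all 3 groups, and up to 5 genes at 0 counts in a group. Some genes that meet this rule are not reported here. Other genes named from lists, neighbouring genes or textbook pathway members were chosen after their values were seen. Promoters were to be printed for the first 2 genes in each direction, and 2 decreases on chromosome 8 were passed over. List medians did not move when genes at 0 counts were set at their bound.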

Additional observations from a re-analysis of the deposited data

How the results depend on the processing

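Left-out libraries moved the counts most. Over these, the genes changed ranged from 2372 to 4787, those higher from 1097 to 2365, those lower from 1275 to 2422, and those higher by at least 2-fold from 415 to 674. Genes set apart from all 3 groups ranged from 685 to 1310, higher 207 to 505 and lower 478 to 805. Without sgKMT2B replicate 1 the count was lowest in each case. The lone library left in a group is assumed to vary like the other groups. The median of chromosome 13 ranged from -0.44 to -0.37 and that of chromosome 20 from 30 Mb from 0.36 to 0.41. The median of chromosome 10 was -0.34 with upper-quartile factors and -0.31 with no filter. The cause was not tested.

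The genes changed numbered 4946 with upper-quartile factors, 4822 with DESeq2, 5225 with no filter, 4817 at a mean of at least 1 CPM, 4507 with the 4 libraries alone and 4492 at 1 depth. KMT2B passed under every alternative run, with log2 changes of -1.16 to -0.90 when a library was left out. No named gene reversed its direction where it passed the test in the main fit or in the alternative. The labels do not say that the replicate numbers shared by the groups mark pairs. Deviations of same-numbered libraries correlated at -0.0009 for WT with sgKMT2B, 0.10 for sgKDM5C with sgKMT2B, 0.083 for sgKDM6A with sgKMT2B and 0.18 for sgKDM5C with sgKDM6A. A replicate block gave 5576 genes changed and 1540 set apart from all 3 groups. With 2 libraries a group, and 15868353 counts in the shallowest, genes under 1 CPM were rarely called (297 of 3444) and a change there may go undetected.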

Other observations

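Nuclear receptors, transcription factors that bind hormones and lipids, gave 14 lower (38.9%, beside 14.5% of all genes) and 5 higher of 36 tested (9 and 2 without sgKMT2B replicate 1). NR2F2, a receptor of mesenchymal and vascular development, fell by 0.72 on the log2 scale. Of the circadian clock genes, BMAL2 fell from 43.3 and 38.7 to 17.8 and 16.3 CPM (log2 change -1.27, SE 0.13, edgeR adjusted p = 1.33e-05), and PER1 and RORA fell by 0.8 and 1.65. Both sgKMT2B libraries lay below all other libraries for BMAL2.

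Antioxidant genes controlled by NRF2 gave 12 higher (26.7%, beside 13.7% of all genes) and 7 lower of 45 (6 and 2 without sgKMT2B replicate 1). HMOX1, haem oxygenase, read 42.8 and 47 CPM in WT and 114 and 98.1 CPM in sgKMT2B, while it read 32.5 and 27.5 CPM in sgKDM5C and 77.6 and 58.8 CPM in sgKDM6A (log2 change 1.24, SE 0.14, edgeR adjusted p = 4.89e-05). NFE2L2, the gene of NRF2 itself, rose from 27.3 and 26.4 to 45.6 and 51 CPM. Among 23 genes of inherited dystonia, 6 were lower (26.1%, beside 14.5% of all genes) and 4 higher (17.4%, beside 13.7%). GCH1, which makes the cofactor of dopamine synthesis, fell from 28.5 and 28.5 to 13.6 and 17 CPM (log2 change -0.9, SE 0.14, edgeR adjusted p = 0.000545). The imprinted growth regulator GRB10 rose from 82.3 and 93.9 to 137 and 129 CPM, and the junction protein JAM2 fell by 2.34 on the log2 scale.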
